A study of Homo sapiens with 4 samples.

Results

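H3K27ac peaks on the proximal part of the long arm of chromosome 8 (proximal 8q) of MOLM13 cells were examined in the peak lists of 2 ChIP-Seq libraries. The peaks were chosen by position alone, as every peak of either list with its start at or above 45.2 Mb and its end at or below 116.7 Mb of chromosome 8 on GRCh38. This stretch of 71.5 Mb held 12320 of the 55852 peaks of the OTX015 list and 22901 of the 86207 peaks of the co-treatment list. No peak crossed either bound. The lower bound lies in a stretch free of peaks, since the last OTX015 peak before it ended at 43932271 and the first inside started at 45975834, and for co-treatment the positions were 43842552 and 45990614. The upper bound lies between closely spaced peaks. Its nearest neighbours inside and outside were OTX015 peaks of 3.72 and 3.77 fold and co-treatment peaks of 3.31 and 3.77 fold. MOLM13 is a human AML line in which an MLL-AF9 fusion drives the leukemia. The cells were exposed for 16 hours either to 500 nM of the BET inhibitor OTX015 alone, or to 500 nM OTX015 together with 500 nM of the Menin inhibitor SNDX-50469, called co-treatment here. OTX015 was thus present in both libraries, so the comparison addresses what the Menin inhibitor changed on top of BET inhibition. There was 1 ChIP library per treatment, so replicate error is unknown, no treatment difference could be tested, and values are set side by side, OTX015 first and co-treatment second. Untreated cells and cells given SNDX-50469 alone were not analysed here, nor were the 2 input libraries.

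Acetylation of lysine 27 on histone H3 marks active promoters and enhancers. It is written by the acetyltransferases EP300 and CREBBP and read by BET proteins, which OTX015 displaces from acetylated chromatin. Menin tethers MLL1 and MLL fusion proteins to their target genes, and SNDX-50469 blocks that contact. Proximal 8q holds several genes known from myeloid biology and leukemia, among them LYN, CEBPD, BAALC and RUNX1T1, mixed with housekeeping genes and with wide tracts that hold few protein-coding genes. As a check of the labelled cell type, peaks lay within 1 kb of the 5′ end of 10 of 16 myeloid marker genes with OTX015 and of 11 with co-treatment. SPI1, MPO, FLT3 and HOXA9 were among the markers with such a peak in both lists, and MEIS1, CD33, ITGAM and PTPRC had none in either list. Markers of other cell types had such a peak in 1 (CD79A) and 2 (CD3D and CD79A) of 15 genes. Over all protein-coding genes, 15.0% had such a peak with OTX015 and 15.4% with co-treatment. The counts for other cell types are near these shares and do not show that such cells were absent. A missing peak says only that the caller listed none there.

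Peaks were both more numerous and wider on proximal 8q after co-treatment. Cover, the length lying under peaks, was 5.57 Mb or 7.79% of the region with OTX015, and 14.2 Mb or 19.8% with co-treatment. The ratio of cover, co-treatment over OTX015, was 2.55, and that of peak numbers was 1.86. The region held 172 peaks per Mb with OTX015 and 320 with co-treatment. The median peak was 344 bp long with OTX015 and 431 bp with co-treatment, and the widest were 10.4 and 12.0 kb. As a share of its own list, proximal 8q gave 22.1% of the OTX015 peaks (Wilson 95% interval 21.7 to 22.4%) and 26.6% of the co-treatment peaks (26.3 to 26.9%). These intervals cover counting error over peaks only.

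The direction of this difference depended on the cut applied to the lists. From the lowest peaks of each list, the background depth was worked out as 0.764 overlapping fragments for OTX015 and 1.47 for co-treatment, a ratio of 1.92. A co-treatment peak was therefore listed from 4.76 times background on, an OTX015 peak from 6.54 times on. When the co-treatment list was held to the same 6.54 times background, it kept 275 peaks and 0.263 Mb in the region, and the ratio of cover turned over to 0.0471. This cut is the floor of the OTX015 list, which kept all of its 12320 peaks in the region. The median co-treatment peak of the region, at 5.17 times, lay below the cut. Only the co-treatment list could lose peaks, so this setting cannot decide which treatment had more cover. With the same number of peaks taken from each list over the genome, the ratio was 2.11. The part that depth played in the difference was not tested, and every statement below on more or less cover refers to the lists as deposited unless a common enrichment is named.

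Peak heights could not be ranked between the treatments, since the median of each list lay just above its own floor. The fold of a peak, its pileup over background with a pseudocount of 1, had a median of 3.56 with OTX015 and 3.48 with co-treatment, and a highest value of 7.18 and 6.0. Relative to the background without the pseudocount, the median peak stood at 6.91 times with OTX015 and 5.17 times with co-treatment. The floors of the lists were 6.54 and 4.76 times, or 3.40 and 3.24 fold. The median pileup itself was 5.28 fragments with OTX015 and 7.60 with co-treatment. More co-treatment peaks reached a −log10 q of 2, the q-value being the caller's p-value adjusted over the genome. There were 736 such peaks with OTX015 (5.97% of those in the region) and 3552 with co-treatment (15.5%). At a −log10 q of 5 only 3 and 4 peaks were left. Peaks at the lowest fold of their list made up 23.2% of the OTX015 peaks and 9.72% of the co-treatment peaks of the region.

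In the lists as deposited, the ratio of cover between the treatments was higher on proximal 8q than on the rest of chromosome 8. It was 1.93 on the short arm, where cover was 4.03 and 7.79%, and 1.90 on the distal long arm beyond 116.7 Mb (8q24), where it was 15.2 and 29.0%. On chromosomes 5, 6, 13, 19 and 20, which also carried dense peaks, the ratio was 1.61, and on the other 18 chromosomes it was 0.996. Relative to those 18 chromosomes, the share of proximal 8q under peaks was 24.6 times as high with OTX015 and 62.9 times as high with co-treatment. Those 18 are what was left after chromosome 8 and the densely covered chromosomes were set aside, so they form a low reference. Over the whole genome, 0.842% lay under OTX015 peaks and 1.44% under co-treatment peaks. At the common enrichment over background, where only the co-treatment list lost peaks, the order of the parts by ratio of cover changed. The ratio of cover was then 0.0471 on proximal 8q, 0.0364 on the short arm, 0.0675 on 8q24, 0.0891 on the dense chromosomes and 0.106 on the other 18, and the co-treatment share of proximal 8q was 11.0 times that of those 18, below the 24.6 times of OTX015. MOLM13 cells are known to carry extra copies of chromosome 8. The files give no copy number, and the p-values of 99.7% and 99.4% of the peaks in the region were matched within 0.1 on the −log10 scale by 1 constant background for each list. The part of copy number in the density of peaks was not tested.

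Cover was uneven along the arm and kept much the same profile in both lists. Over the 72 bins of 1 Mb, cover ranged from 0.0735 to 17.7% with OTX015, with a median of 7.19%, and from 0.0828 to 53.4% with co-treatment, with a median of 16.8%. Cover was higher with co-treatment in 71 bins and lower in 1. Across bins the covers of the 2 lists had a Pearson r of 0.873 and a Spearman rho of 0.872, given as a description because neighbouring bins share chromatin and both lists share the base sequence. Of the 10 most covered bins of each list, 7 were the same.

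**Figure D1:**
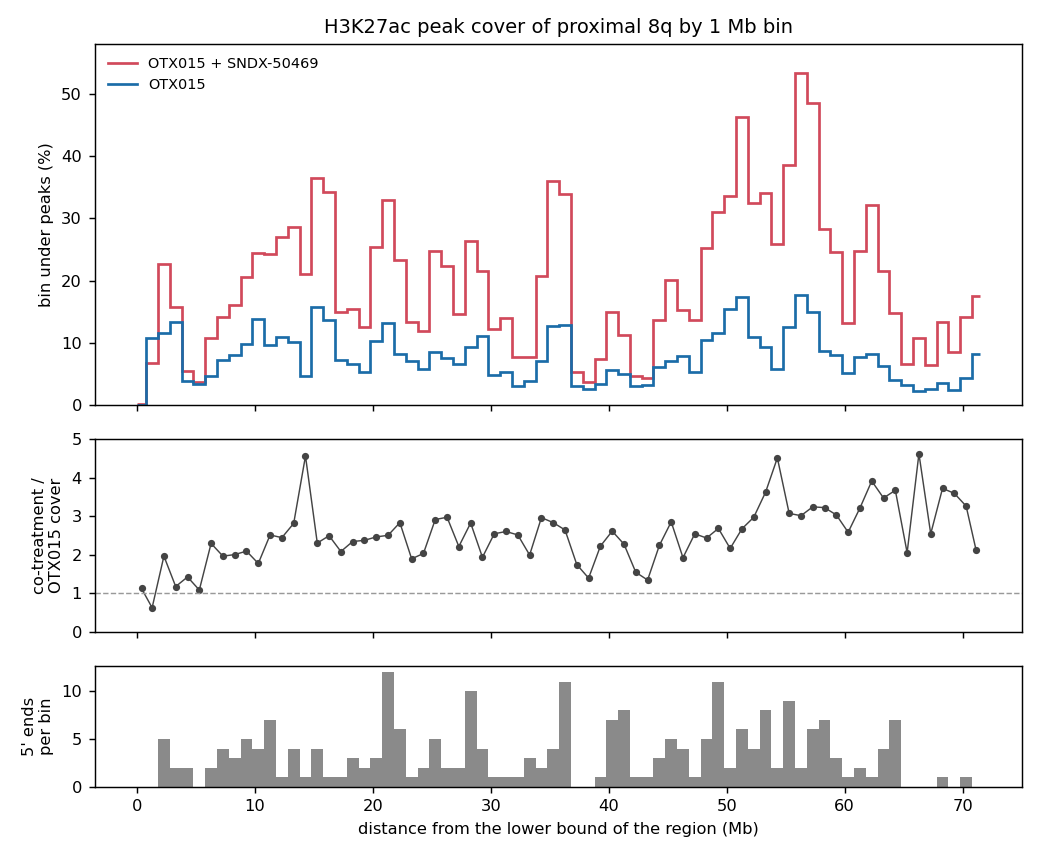
Percent of each 1 Mb bin under peaks (top), the co-treatment over OTX015 ratio of cover (middle) and the number of protein-coding 5′ ends in the bin (bottom), against distance in Mb from the lower bound of the region. The co-treatment line lies above the OTX015 line in 71 of 72 bins, and most of the highest ratios lie in the distal part.

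By the mean of both lists, the 3 most covered bins lay from 96 Mb on, although the bin from 60 to 61 Mb ranked the third with OTX015 alone (15.8%). The bin from 101 to 102 Mb was highest in both lists, with 17.7% under peaks after OTX015 and 53.4% after co-treatment. It holds the 5′ ends of ZNF706, a zinc finger gene, and of GRHL2, a transcription factor of epithelia. The next bin, from 102 to 103 Mb, had 14.9 and 48.5% and holds 5′ ends that include those of NCALD, RRM2B, ODF1, KLF10 and AZIN1. The bin from 96 to 97 Mb, with GDF6, UQCRB, MTERF3, PTDSS1, SDC2 and CPQ, had 17.3 and 46.3%. These bins thus joined genes of unlike function, from a mitochondrial respiratory chain subunit (UQCRB) to a sperm tail protein (ODF1). By the same mean, the least covered bins were those from 45 to 46, 83 to 84 and 50 to 51 Mb, and none of them held a protein-coding 5′ end.

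The ratio of cover was higher toward the distal end of the region. From 45.2 to 56 Mb cover was 7.99 and 13%, a ratio of 1.63. In the 4 stretches of 10 Mb from 56 to 96 Mb the ratio lay between 2.31 and 2.55. It was 3.13 from 96 to 106 Mb, where cover was 11.0 and 34.5%, and 3.29 from 106 to 116.7 Mb, where it was 4.69 and 15.4%. In the next 10 Mb, outside the region, it was 2.65. Counting peaks that reached a −log10 q of 2 alone, the ratio was 3.19 in the first stretch and between 5.70 and 6.64 from 56 to 96 Mb. From 96 to 106 Mb it was 6.79, little above the 6.64 of the stretch before. It was 8.06 in the last stretch of the region and 10.6 in the 10 Mb beyond it. A ratio of 3 or more was found in 15 of the 21 bins from 96 Mb on and in 1 of the 51 bins before it, a boundary chosen after the values were seen.

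Single bins departed from their neighbours. The bin from 59 to 60 Mb, whose only protein-coding 5′ end is that of TOX, a regulator of T cell development, had 4.60 and 21.0%, a ratio of 4.57. The highest ratio, 4.63, was in the bin from 111 to 112 Mb, which holds no 5′ end and had 2.32 and 10.7%. The single bin with less cover after co-treatment, from 46 to 47 Mb near the centromere, also holds no 5′ end. It had 218 peaks and 10.8% cover with OTX015 against 159 peaks and 6.82% with co-treatment. Leaving out the first 2 Mb of the region moved its ratio of cover from 2.55 to 2.59.

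Bins with more genes had more cover. Median cover in the 10 bins without a protein-coding 5′ end was 2.85% with OTX015 and 6.5% with co-treatment. In the 43 bins with 1 to 4 such ends it was 7.01 and 15.4%, and in the 19 bins with 5 or more it was 9.62 and 25.3%. The ranges of these classes overlapped in both lists. Spearman's rho between the cover of a bin and its number of 5′ ends was 0.589 for OTX015 and 0.634 for co-treatment.

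The region was nonetheless covered well beyond its genes. Protein-coding gene bodies, 38.0% of the region, were covered to 8.41% with OTX015 and 23.4% with co-treatment. Bodies of lncRNA genes outside them were covered to 8.60 and 20.3%, and the remaining sequence to 7.02 and 16.8%. The remaining sequence thus held 41.8% of all OTX015 cover and 39.2% of all co-treatment cover. Past the peak-free start of the region, the longest gap between neighbouring peaks was nearly the same in both lists, chr8:85660311-85830241 (170 kb) with OTX015 and chr8:85642124-85828749 (187 kb) with co-treatment. It holds records of REXO1L pseudogenes, near-identical copies in tandem.

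Peaks stood close together over most of the arm. The median gap between neighbouring peaks was 2.96 kb with OTX015 and 1.37 kb with co-treatment. When peaks within 12.5 kb were stitched into domains, a distance used for super enhancers, OTX015 gave 1247 domains spanning 62.7% of the region and co-treatment gave 446 spanning 87.0%. The longest OTX015 domain, chr8:100785123-101540026, spanned 0.755 Mb and met 3 protein-coding 5′ ends. The longest co-treatment domain, chr8:93414160-99732445, spanned 6.32 Mb with 36 protein-coding 5′ ends, and 33.7% of it lay under peaks. Stitching at this distance therefore did not separate single enhancers within the longest domains. Domains of at least 100 kb numbered 109 with OTX015 and 108 with co-treatment, and the median domain spanned 16.4 and 32.7 kb.

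Cover was nevertheless concentrated at the 5′ ends of genes. RefSeq places the 5′ ends of 234 protein-coding genes with a known strand in the region. In the first kilobase downstream of these ends, 21.4% of the bases lay under OTX015 peaks, against a mean of 8.84% at 10 to 20 kb on either side, a ratio of 2.41. With co-treatment, 44.4% of that kilobase and 27.2% of the flanks were covered, a ratio of 1.63. The first kilobase stood above the flank by 12.5 percentage points with OTX015 and 17.1 with co-treatment. In both lists the first kilobase downstream was the highest of the 40 kb examined.

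**Figure D2:**
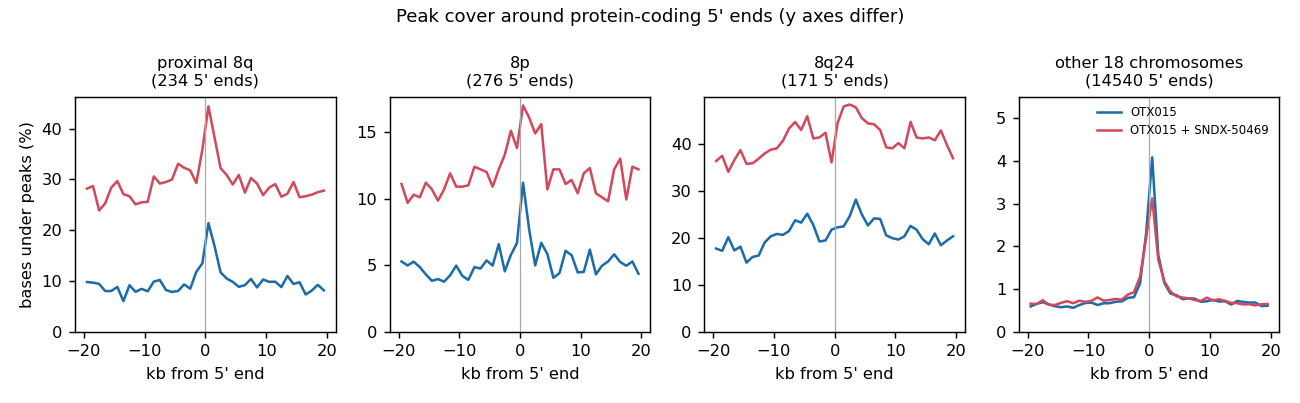
Percent of bases under peaks in 1 kb steps from 20 kb upstream to 20 kb downstream of protein-coding 5′ ends, for proximal 8q and for 3 other parts of the genome; the y axes differ. On proximal 8q the first kilobase downstream reaches 21.4% with OTX015 and 44.4% with co-treatment over flanks of 8.84 and 27.2%, whereas on the other 18 chromosomes the flanks are near 0.650 and 0.677%.

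By ratio, the 5′ ends of proximal 8q stood out from their flanks about as those of the short arm did, where the ratios were 2.32 and 1.54. They stood out more than those of 8q24, where the ratios were 1.18 and 1.15 and the highest kilobase was not the first. In percentage points above the flank, the short arm had 6.34 and 5.92 and 8q24 had 3.33 and 5.66, against 12.5 and 17.1 on proximal 8q. On the other 18 chromosomes the first kilobase was covered 6.27 and 4.60 times as much as the flanks, which were themselves nearly free of peaks (0.650 and 0.677%). Among those 14540 5′ ends, the cover of the first kilobase was lower with co-treatment, 3.12% against 4.08%, whereas on proximal 8q it was higher.

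Cover was highest next to 5′ ends and lowest far from them, with little difference between 5 and 100 kb for OTX015. Within 1 kb, 16.7% of bases were covered with OTX015 and 39.7% with co-treatment, 2.14 and 2.0 times the level of the whole region. From 10 to 50 kb, cover was 9.26 and 25.9%. Beyond 500 kb, a class that makes up 13.3% of the region, cover was 3.67 and 6.71%, or 0.471 and 0.338 times the level of the region. The ratio of cover, co-treatment over OTX015, was highest from 5 to 10 kb (3.0) and lowest beyond 500 kb (1.83). Since little of the arm lies near a gene start, only 1.33% of the OTX015 cover and 1.25% of the co-treatment cover lay within 1 kb of a 5′ end. The median peak was 102 kb from the nearest protein-coding 5′ end with OTX015 and 98.7 kb with co-treatment.

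**Figure D3:**
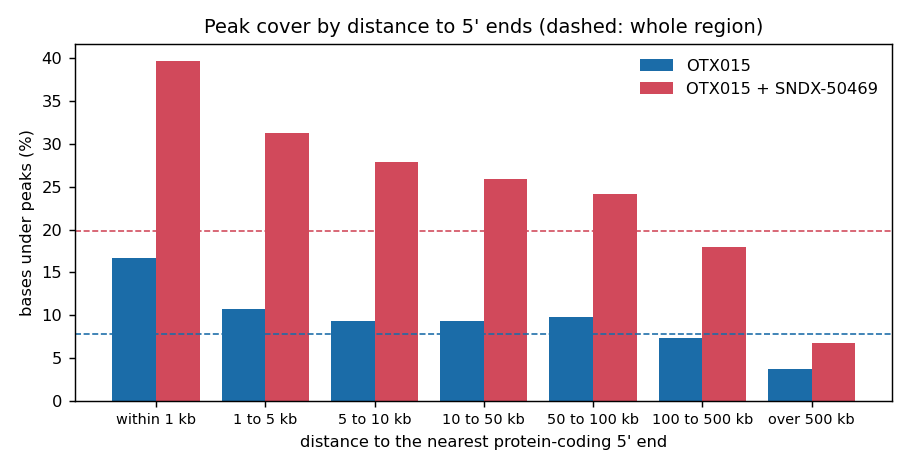
Percent of bases under peaks by distance to the nearest protein-coding 5′ end, with dashed lines at the level of the whole region (7.79 and 19.8%). Bars are highest within 1 kb, at 16.7 and 39.7%, and lowest beyond 500 kb, at 3.67 and 6.71%; between 5 and 100 kb the OTX015 bars are nearly level, at 9.26 to 9.74%.

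The few peaks that held a 5′ end differed in form from the others. They numbered 30 with OTX015 (0.244% of the peaks of the region) and 94 with co-treatment (0.410%). Their median length was 1550 and 1520 bp, against 341 and 428 bp for peaks farther than 10 kb from any 5′ end. A −log10 q of 2 was reached by 70.0% of them with OTX015 and 42.6% with co-treatment, against 5.59 and 15.2% of the distant peaks. A wide peak is more likely to meet a given base, so their length is in part set by how they were picked.

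The highest peaks of the lists lay at genes and in a distal site. With OTX015 the highest was chr8:96567382-96573183, 5.80 kb long at 7.18 fold, inside SDC2, which encodes the cell surface proteoglycan syndecan 2. All of it lay under co-treatment peaks. A short OTX015 peak of 0.333 kb, chr8:57205792-57206124, outside protein-coding genes and 212 kb from the 5′ end of BPNT2, a Golgi phosphatase gene, followed at 6.20 fold. The same site was among the highest with co-treatment, as chr8:57205741-57206048 at 5.79 fold, and the highest co-treatment peak of all, chr8:57209641-57210450 at 6.0 fold, lay a few kilobases from it. The OTX015 peak at the 5′ end of RBM12B, an RNA-binding protein gene, was chr8:93739690-93741108 at 6.19 fold and lay wholly under co-treatment peaks.

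Further high peaks were called at or beside gene starts, inside a gene far from its start, and outside protein-coding genes. With OTX015 they included chr8:73876987-73878717 beside the 5′ end of UBE2W, a ubiquitin conjugating enzyme gene, at 5.82 fold, and chr8:58657029-58660934 over that of NSMAF, a gene of sphingomyelinase signaling, at 5.75 fold. With co-treatment they included chr8:56557377-56562152, 111 kb from the 5′ end of PENK, the proenkephalin gene, at 5.85 fold, chr8:67059236-67063048 over that of COPS5, a COP9 signalosome subunit gene, at 5.36 fold, and chr8:47363550-47372335 inside SPIDR, a DNA repair gene, at 5.2 fold. All were covered in part by the other list, from 38.4% for the COPS5 peak to 99.3% for the NSMAF peak.

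Most genes of the region had a promoter peak after co-treatment, and fewer had it with OTX015. A peak lay within 1 kb of the 5′ end of 127 of 234 genes with OTX015 (54.3%, Wilson 95% interval 47.9 to 60.5%), where 15.0% of all protein-coding genes had such a peak. With co-treatment it was 206 of 234 (88.0%, 83.2 to 91.6%), where 15.4% of all genes had it. Of these 234 genes, 117 had the peak in both lists, 10 in the OTX015 list alone, 89 in the co-treatment list alone and 18 in neither. Over all 19312 protein-coding genes, the shares were 9.08% in both lists, 5.91% in the OTX015 list alone and 6.36% in the co-treatment list alone. A count on the short arm gave 31.2% of 276 genes with OTX015 and 53.3% with co-treatment, and on 8q24 63.7 and 90.6% of 171 genes. On the other 18 chromosomes the share was 11.5% with OTX015 and 9.42% with co-treatment. Where a larger part of the sequence is covered, more windows meet a peak by position alone, so these shares follow the cover of the region as well as its 5′ ends. At the common enrichment over background, the share on proximal 8q was 5.13% with co-treatment. With OTX015 it stayed at 54.3%, since that list loses no peak at this cut.

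Nearly every gene of the region had more cover within 10 kb of its 5′ end after co-treatment. This held for 222 of 234 genes, with 12 lower, where 61.3% of all genes with cover had more and 38.7% had less. The median difference was 4.15 kb on proximal 8q, 1.74 kb on the short arm, 4.16 kb on 8q24 and 0.0990 kb on the other 18 chromosomes. The 5′ ends of 53 of the 234 genes lie within 20 kb of another, so that neighbours share part of their windows. At the common enrichment over background, where only the co-treatment list lost peaks, 10 genes had more and 218 had less with co-treatment.

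**Figure D4:**
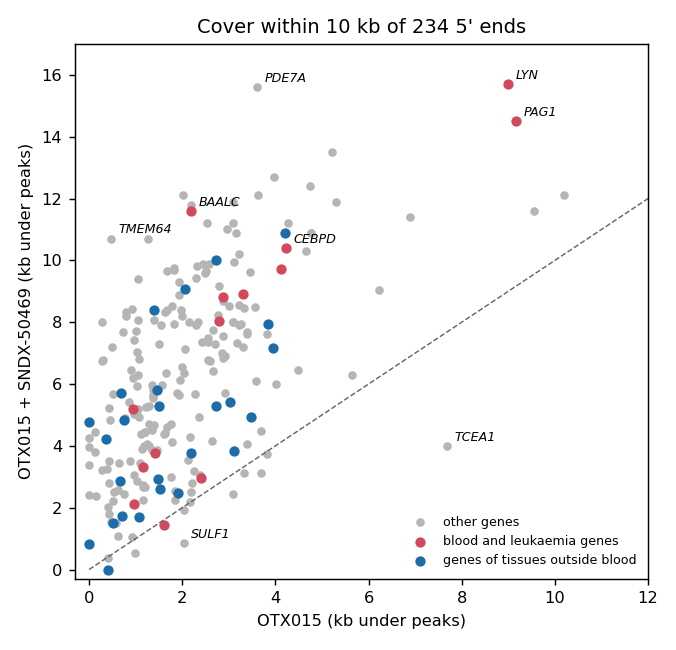
Each point is a protein-coding gene of proximal 8q, placed by its kb under OTX015 peaks (x) and co-treatment peaks (y) within 10 kb of the 5′ end; the dashed line marks equal cover. Of the 234 points, 222 lie above the line, and TCEA1 is the farthest below it.

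The 8 genes with the largest differences in favor of co-treatment, with 5′ ends at least 20 kb apart, were of unlike function. PDE7A (chr8:65714334-65842064), a cyclic AMP phosphodiesterase best known from T cells, had 3.61 kb covered around its gene start in the OTX015 list and 15.6 kb after co-treatment. TMEM64, a transmembrane protein gene, had 0.470 and 10.7 kb, with a promoter peak after co-treatment alone. OTUD6B, a deubiquitinase gene, had 2.01 and 12.1 kb. KLF10, a zinc finger factor induced by TGF-β, had 2.18 and 11.8 kb, and COX6C, a subunit of cytochrome c oxidase, 1.27 and 10.7 kb. BAALC, RBM12B (3.09 and 11.9 kb) and ZNF704 (3.98 and 12.7 kb) followed. In the OTX015 list all 8 had between 0.470 and 3.98 kb.

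Lower cover after co-treatment was rare and, with the exception of TCEA1, small in size. TCEA1, which encodes the elongation factor TFIIS that frees stalled RNA polymerase II, had 7.69 kb covered around its gene start in the OTX015 list and 3.98 kb after co-treatment. Its promoter peak was present in both lists, and cover of its gene body was 20.7 and 17.7%. SULF1, a heparan sulfatase, had 2.04 and 0.860 kb and had no promoter peak in either list. PI15, a protease inhibitor gene, had 3.08 and 2.45 kb, and CA8, a carbonic anhydrase-related gene, 3.69 and 3.11 kb. DCAF4L2 (0.991 and 0.528 kb), RALYL (0.415 kb and none), ST18 (3.33 and 3.11 kb) and ZFPM2 (1.61 and 1.45 kb) differed by less. Over the gene body alone, each of these except TCEA1 was covered more with co-treatment, as with SULF1, whose body cover was 9.91% with OTX015 and 16.6% with co-treatment.

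The counts for groups of genes below are to be read against the whole region, where 54.3% of genes had a promoter peak with OTX015 and 88.0% with co-treatment, and 222 of 234 were covered more near the 5′ end. Genes of blood and leukemia were near these shares. Of the 14 such genes, 6 (42.9%) had a promoter peak with OTX015, and 13 (92.9%) had it with co-treatment, those 6 included. Within 10 kb of the 5′ end, 13 were covered more and 1 less, with medians of 2.59 and 8.43 kb, where the medians of all 234 genes were 1.84 and 5.99 kb. LYN (chr8:55879835-56014169), a SRC family kinase of myeloid and B cells, had 9.0 kb covered with OTX015 and 15.7 kb with co-treatment. Its gene body was covered to 26.3% and 50.6%. PAG1 (chr8:80967810-81112068), an adaptor that holds SRC kinases in check at the membrane, had 9.17 and 14.5 kb. These 2 genes had the highest cover of the list in both libraries.

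**Figure D5:**
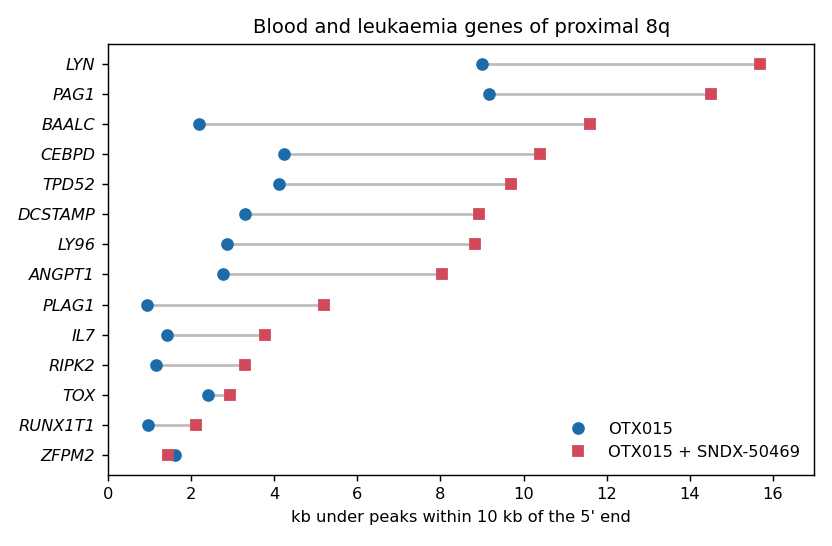
Kb under peaks within 10 kb of the 5′ end of the 14 blood and leukemia genes, with OTX015 (circles) and co-treatment (squares). LYN and PAG1 are highest in both lists, BAALC shows the widest gap, and ZFPM2 is the gene with slightly less after co-treatment.

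CEBPD (chr8:47736913-47738164), a C/EBP transcription factor of myeloid cells made from a short gene, had 4.23 kb covered with OTX015 and 10.4 kb with co-treatment, and its whole body was under peaks with co-treatment. BAALC (chr8:103140725-103230305), whose high expression marks poor outcome in AML, had a promoter peak after co-treatment alone, with 2.19 and 11.6 kb covered. TPD52, a vesicle trafficking gene in B and plasma cells, had 4.11 and 9.71 kb. DCSTAMP, which osteoclast precursors need to fuse, had 3.30 and 8.92 kb, and LY96, the MD-2 partner of the LPS receptor TLR4, 2.87 and 8.83 kb. ANGPT1, a TIE2 ligand, had 2.78 and 8.04 kb.

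PLAG1, a zinc finger oncogene, had no promoter peak in either list and had 0.950 and 5.2 kb. IL7, the lymphoid cytokine, had 1.42 and 3.78 kb, and RIPK2, the kinase below NOD receptors, 1.15 and 3.30 kb. RUNX1T1, the ETO partner of RUNX1 in t(8;21) AML, had 0.965 and 2.13 kb. TOX differed little near its 5′ end, with 2.40 and 2.95 kb, but 7.40 and 28.3% over its body. ZFPM2, a partner of GATA factors, was the gene with less near its 5′ end.

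Housekeeping genes differed between the lists in the same direction as nearly all 234 genes of the region. Among replication, cell cycle and DNA repair genes, 10 of 14 (71.4%, against 54.3% of the region) had a promoter peak with OTX015 and 13 (92.9%, against 88.0%) with co-treatment, and all 14 were covered more near the 5′ end (medians 2.22 and 7.25 kb). STK3, a Hippo pathway kinase, had 2.53 and 11.2 kb, and NBN, a member of the MRN complex that senses DNA breaks, 1.92 and 8.87 kb. RRM2B, a p53-induced subunit of ribonucleotide reductase, had 4.28 and 11.2 kb, and TP53INP1, also a p53 target, 5.30 and 11.9 kb. Of 9 ribosome and translation genes, 8 (88.9%) had a promoter peak in each list, 7 of them the same, and all 9 were covered more. RPL7, a large subunit protein gene, had 2.44 and 9.88 kb, RRS1, a ribosome assembly factor gene, 2.48 and 9.60 kb, MRPS28 of the mitochondrial ribosome 3.12 and 9.94 kb, and DCAF13, an rRNA processing factor gene, 0.796 and 8.33 kb.

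Transcription, chromatin and RNA genes had a promoter peak at 11 of 16 (68.8%) with OTX015 and at 15 (93.8%) with co-treatment, where the region had 54.3 and 88.0%, and 15 were covered more, with TCEA1 the exception. POLR2K, a small subunit shared by the RNA polymerases, had 1.83 and 9.70 kb, and ZBTB10, a zinc finger repressor, 1.77 and 8.54 kb. All 12 mitochondrial and metabolic genes had a promoter peak after co-treatment and 9 (75%) had it with OTX015, and all were covered more. Their medians were 2.22 and 8.10 kb. AZIN1, which stabilizes ornithine decarboxylase, had 3.09 and 11.2 kb, and DECR1, an enzyme of fatty acid oxidation, 2.96 and 11.0 kb. SLC25A32, the mitochondrial folate carrier, had 0.796 and 8.19 kb and shares its window with DCAF13. Among 14 trafficking, ubiquitin and signaling genes, 9 (64.3%) had a promoter peak with OTX015 and 13 (92.9%) with co-treatment, and all 14 were covered more, as were 222 of the 234 genes of the region. RNF19A, an E3 ubiquitin ligase, had 4.74 and 12.4 kb, ATP6V1C1 of the vacuolar proton pump 1.05 and 9.40 kb, and YWHAZ, a 14-3-3 protein gene, 3.21 and 10.2 kb.

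Genes best known from tissues outside blood were covered less than the other lists, but most also had more cover after co-treatment. Of 26 such genes, 11 (42.3%, against 54.3% of the region) had a promoter peak with OTX015 and 20 (76.9%, against 88.0%) with co-treatment. Near the 5′ end 25 were covered more, much as 222 of all 234 genes were, with medians of 1.49 and 4.81 kb where those of the region were 1.84 and 5.99 kb. Over their pooled bodies, cover was 5.26 and 14.1%, against 8.42 and 23.5% over all genes of the region. OSR2, a developmental zinc finger gene whose 5′ end lies next to that of STK3, had 2.73 and 10.0 kb. CRH, which encodes corticotropin releasing hormone, had 2.06 and 9.07 kb, although its short body was covered less, at 13.2 and 9.05%. GDF6, a BMP family ligand of joint and eye development, had 1.39 and 8.38 kb, and ODF1 of the sperm tail 4.21 and 10.9 kb. The exception was RALYL, a brain RNA-binding protein gene.

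The bodies of long genes varied widely. The 34 genes of at least 200 kb had a median of 7.82% of the body covered with OTX015 and 19.9% with co-treatment, and all 34 were covered more, as were 226 of all 234 gene bodies of the region. NCALD, a neuronal calcium sensor gene of 438 kb, had 16.6 and 59.4%, and NDUFAF6, a complex I assembly factor, 21.7 and 48.5%. CPQ, a plasma peptidase gene, had 13.7 and 47.4%, and CLVS1, a clathrin vesicle gene, 16.5 and 37.7%. At the other end, CSMD3, a gene of more than 1 Mb that is expressed in brain, had 2.42 and 6.83%. SNTG1, a brain syntrophin, had 3.20 and 3.62%, MMP16, a membrane metalloproteinase, 3.04 and 4.04%, and CNBD1, a gene with a cyclic nucleotide binding domain, 3.31 and 4.79%. Genes known from neurons were thus found among both the most and the least covered.

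Base by base, most of the cover on proximal 8q was not shared between the lists. Of the OTX015 peaks of the region, 51.3% (50.4 to 52.2%) met a co-treatment peak by at least 1 bp, and of the co-treatment peaks 26.1% (25.6 to 26.7%) met an OTX015 peak. Counted in bases, 2.21 Mb were shared, which is 39.7% of the OTX015 cover and 15.6% of the co-treatment cover. These shares compare with the 19.8% and 7.79% of the whole region that lay under the other list. Of the OTX015 peaks that reached a −log10 q of 2, 56.9% met a co-treatment peak, and of those at the lowest fold 42.8% did. The corresponding shares of co-treatment peaks were 33.6 and 13.6%. Counted in bases, 65.0% of the OTX015 peaks at a −log10 q of 2 and 29.2% of those at the lowest fold lay under the co-treatment list. For co-treatment peaks these values were 24.1 and 7.96%. The latter is close to the 7.79% of the whole region under OTX015 peaks. Shared cover lay nearer to genes than the cover of either list, since 2.40% of it was within 1 kb of a 5′ end, against 1.33 and 1.25%. When at least 50% of a peak had to lie under the other list, 33.9% of OTX015 peaks and 9.80% of co-treatment peaks were shared.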

How the data were processed

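The submitters' processing notes name GRCh38, bcl2fastq 2.17, Trimmomatic 0.33, Bowtie 1.1.2, MACS2 2.1.0 and deepTools. The authors deposited broad peaks of each ChIP library with −log10 p, −log10 q, the fold (a ratio of pileup to background) and a score, which was not used. No read totals were used; depth was solved from the lowest fold and −log10 p under a Poisson background. The titles have H2K27Ac; the antibody is labelled H3K27Ac, which was followed.

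Cover is the union of peaks. Gene positions came from RefSeq GRCh38.p14. Strands, but no coordinates, were looked up by symbol and chromosome in GENCODE v44 (GRCh37 lift). A strand was found for 19312 of 20037 protein-coding genes. A 5′ end is the upstream limit of a gene record on its strand, and other transcript starts were not used. Of 106 entries in 7 gene lists, 105 had a 5′ end in the region (that of EIF3H lies outside). The members and lists were chosen with earlier results of these data known. Named genes are all blood and leukemia genes, for every other list the 4 members that differed most within 10 kb of the 5′ end, the 8 largest gains and losses in that window (5′ ends at least 20 kb apart), genes nearest the 5 highest peaks of each list by −log10 p, genes of the 3 most and 3 least covered bins, and the 4 most and 4 least covered genes of at least 200 kb. Markers were named from a list of 16 myeloid genes and 16 of other cells, of which 15 matched. A gene that the rule for named genes gives is not reported here, and no sequence is printed.

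Cover and background functions were tested on simulated data with known answers. Alternatives used stricter peaks, equal peak numbers, a common enrichment, merged peaks, and other windows and bins. The tools were matplotlib 3.10.9, scipy 1.17.1, pandas 2.3.3, numpy 2.4.6 and Python 3.11.15.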

Additional observations from a re-analysis of the deposited data

How the results depend on the processing

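There was 1 library per treatment and no replicate to leave out, and depth limits every comparison of cover between the lists. No paired analysis was possible because no treatment has a second library. The cause of each shift below was not tested.

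The comparison of the 2 treatments over the whole region turned direction at a common enrichment of 6.54 times background, where the co-treatment over OTX015 ratio was 0.0471 for cover and 0.0223 for peaks. This cut is the floor of the OTX015 list, so only the co-treatment list could lose peaks at it. The ratio of cover was 6.05 with −log10 q of at least 2, 1.29 with at least 5, 2.11 with equal numbers of peaks, 2.77 with peaks merged within 1 kb and 2.59 without the first 2 Mb. The ratio of peaks was 4.83, 1.33, 1.36 and 1.42 under the first 4 of these. The share of 5′ ends with a peak, OTX015 then co-treatment, was 21.8 and 32.1% with −log10 q of at least 2, 0.427% in both with at least 5, 40.6 and 75.2% within 500 bp, and 71.4 and 95.7% within 2 kb. It was 78.6% for co-treatment with equal numbers and 5.13% at the common enrichment. Mean cover per gene within 1 kb of the 5′ end, with windows that overlap counted for each gene, was 2.24 and 2.02 times that of the region. It was 15.5 and 4.33 with −log10 q of at least 2, 22.2 and 30.1 with at least 5, 2.16 and 1.84 when merged, 2.25 and 2.03 within 500 bp, 2.04 and 1.86 within 2 kb, and for co-treatment 2.22 with equal numbers and 11.0 at the common enrichment.

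Shared cover, as a percent of OTX015 and of co-treatment cover, was 43.4 and 7.18 with −log10 q of at least 2, 3.40 and 2.65 with at least 5, 35.4 and 16.8 with equal numbers, 2.45 and 52.1 at the common enrichment, and 51.5 and 18.6 when merged. Shared peaks by 50% of their length were 33.9 and 9.80%. Cover relative to the other 18 chromosomes was 6.83 and 41.0 times with −log10 q of at least 2, 1.33 and 3.07 with at least 5, and 27 and 74.9 when merged. For co-treatment it was 74.0 with equal numbers and 11.0 at the common enrichment. Spearman's rho between bins was 0.851 in 500 kb bins and 0.839 in 2 Mb bins, where 100% of bins had more cover with co-treatment. Gene counts under other peak sets were added after seeing the data, and 10 genes had more and 218 less at the common enrichment. The number with less was 32 with −log10 q of at least 2 and 24 with equal numbers, and 0 when the gene body with 10 kb either side was used.

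Of 69 named genes under 2 other windows, 120 of 138 differences kept their direction. Those that turned, co-treatment minus OTX015 over the body alone and then with 10 kb either side, were CA8 12.2 and 14.2 kb, DCAF4L2 0.122 and 0.104 kb, PI15 3.16 and 3.42 kb, RALYL 36.9 and 37.9 kb, SNTG1 3.78 and 3.46 kb, ST18 9.34 and 9.99 kb, SULF1 13 and 15.4 kb, and ZFPM2 34.7 and 36.4 kb. CRH turned over the body alone (−0.0870 kb) and TCEA1 with 10 kb either side (0.799 kb).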
